A study of Homo sapiens with 48 samples.

Results

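The effect of SNX631, a small-molecule inhibitor of the Mediator kinases CDK8 and CDK19, was examined in Rv1-Luc cells grown in complete serum, as 3 libraries from cells given the drug against 3 libraries from cells given vehicle. These 6 libraries are those whose titles name the luciferase subline, fetal bovine serum (FBS) and the drug or the control, out of 48 libraries in the series, and 20009 of the 61815 genes in the count table were expressed highly enough to be tested. Rv1-Luc is the 22Rv1 human prostate cancer line after transduction with a lentivirus that carries firefly luciferase, and it also holds a blasticidin resistance gene. Both groups have this genotype, with CDK8 and CDK19 intact. The vehicle group received 0.1% DMSO in FBS medium for 72 hours, and the SNX631 group received 500 nM of SNX631 in the same medium for the same time. For comparison the text uses Rv1-Luc in serum that charcoal has stripped of androgen (CSS), the parental line Rv1-WT in FBS, and dKO-8M and dKO-19M in FBS. In dKO-8M and dKO-19M both kinase genes were knocked out and a kinase-inactive mutant of CDK8 or of CDK19 was put back, so that neither line has an active Mediator kinase. Each of these settings has 3 vehicle and 3 SNX631 libraries at the same dose and time. The study states that its RNA-Seq replicates are biological, and nothing in the labels says on which day or in which batch any of them was made.

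Mediator is a large protein complex that links transcription factors bound at enhancers and promoters to RNA polymerase II. A detachable module of Mediator, built from cyclin C, MED12, MED13 and either CDK8 or its paralog CDK19, phosphorylates transcription factors and other regulators, and it can either raise or restrain the transcription of a gene. 22Rv1 is a model of castration-resistant prostate cancer. Its cells grow with little androgen, and they keep the secretory luminal identity of prostate epithelium.

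The 6 libraries held 21.1 to 26.2 M counts, and 19845 to 19908 of the genes tested had counts in each of them. Levels are given as CPM, counts scaled to library size with TMM factors, in the order replicate 1, 2 and 3. Luminal prostate genes were expressed in all 6 libraries, with FOXA1 at 527 to 748 CPM, CDH1 at 255 to 281 CPM and KLK3 at only 7.13 to 11.5 CPM. The basal markers TP63, KRT5 and KRT14 had 0 to 3 counts per library, and the endothelial markers CDH5 and KDR had 0. The luciferase transgene stood at 500.3 ± 14.9 CPM (SD, n = 3) under vehicle and 504 ± 7.67 CPM under SNX631, and the blasticidin resistance gene at 84.5 ± 3.93 and 80.7 ± 2.73 CPM, so that neither differed by more than the spread between replicates. Vehicle replicate 1 stood apart from vehicle replicate 2, as the chi-square between them over all genes, divided by its degrees of freedom, was 9.71, and it was 3.2 to 5.13 for the other 5 pairs of replicates. In bulk RNA a change in the share of cells that express a gene and a change in the RNA made per cell cannot be told apart.

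SNX631 changed the level of genes in both directions, more of them upward. At the cutoffs of the study, which ask for a fold change (FC) above 1.5 with a false discovery rate (FDR) below 0.01, edgeR's quasi-likelihood test called 734 differentially expressed genes (DEGs), 3.67% of those tested. Of these, 465 rose (2.32% of genes tested) and 269 fell (1.34%). The median log2 FC was 0.99 among the DEGs that rose and -0.85 among those that fell, against 0.003 over all genes tested. Changes of more than 2-fold were found for 226 of the DEGs that rose and for 91 of those that fell, and changes of more than 4-fold for 47 and 11. The 3 SNX631 libraries lay wholly above or below the 3 vehicle libraries in 702 of the 734 DEGs, whereas this was so for 29.8% of all genes tested.

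The share of genes called differed between levels. Of 5010 genes with a mean of 1 to 10 CPM, 223 rose and 148 fell, which is 7.41% of that band. In the band from 10 to 100 CPM 119 of 8189 genes rose and 66 fell, and from 100 to 1000 CPM 42 of 2271 rose and 15 fell. Below 1 CPM, where the median SE of the log2 FC was 0.448 against 0.0621 between 10 and 100 CPM, 79 of 4483 genes rose and 38 fell. Above 1000 CPM 4 of 56 genes were DEGs, which is 7.14% of that band and thus close to the share between 1 and 10 CPM. They included KRT8, a keratin, which rose, and the chaperones HSP90B1 and HSPA5, which fell.

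**Figure D1:**
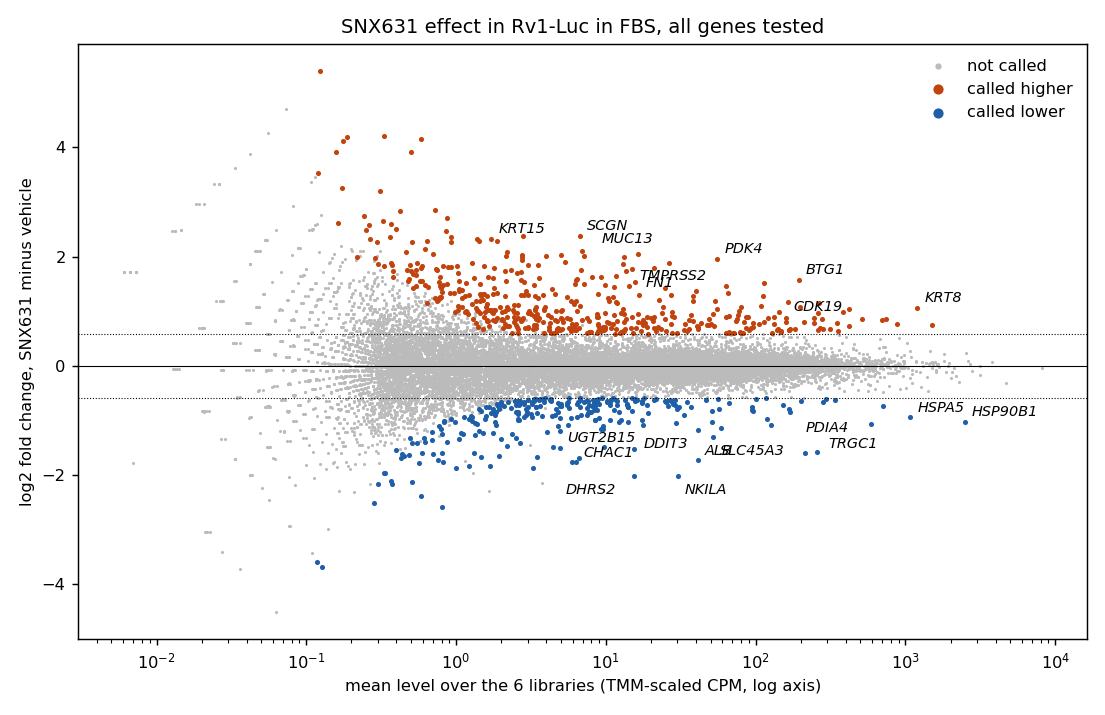
Each point is a gene, with its mean level over the 6 libraries in CPM on a log axis and its log2 FC, SNX631 minus vehicle, on the vertical axis. Orange points are the 465 DEGs that rose, blue points the 269 that fell and grey points the genes that were not called, and dotted lines mark a 1.5-fold change. HSP90B1 is the most abundant of the DEGs.

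The targets of the drug and the rest of their module were examined first. CDK8 was at 29.7, 28.3 and 27.5 CPM under vehicle and 27.4, 28.1 and 29.8 CPM under SNX631, and the groups overlapped, with a log2 FC of -0.0037 ± 0.0536 (SE) and an FDR of 0.975. CDK19, in contrast, was measured at 112, 117 and 120.0 CPM under vehicle and 204, 196 and 206 CPM under SNX631. The SNX631 libraries were all above the vehicle libraries, and the log2 FC was 0.80 ± 0.0429 (edgeR FDR 7.72e-23). Of the 7 genes of the module CDK19 alone was a DEG. The log2 FC of the other members was -0.14 for CCNC, which encodes cyclin C, -0.10 for MED12, 0.41 for its paralog MED12L, 0.04 for MED13 and -0.07 for MED13L, and the FDR ranged from 0.0204 for CCNC to 0.975 for CDK8. None of the 26 core Mediator subunits tested was a DEG, and their median log2 FC was 0.01.

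The genes that rose most came from many functional classes. Ranked by p-value they were led by BTG1, an antiproliferative cofactor of transcription, at 91.9, 103 and 98.4 CPM under vehicle and 289, 288 and 296 CPM under SNX631 (log2 FC 1.57 ± 0.0385, FDR 4.31e-39). PDK4, a kinase that shuts off pyruvate dehydrogenase and thereby spares glucose, followed at 18.9, 25.9 and 23.2 CPM under vehicle and 95.7, 88.4 and 80.9 CPM under SNX631 (log2 FC 1.96 ± 0.0674, FDR 8.16e-32). In both genes every SNX631 library was far above every vehicle library, and the replicates within a group were close. PPP3CA, the catalytic subunit of calcineurin, was at 179, 175 and 180.0 CPM under vehicle and 364, 340.3 and 336 CPM under SNX631, and its groups were also far apart (log2 FC 0.96 ± 0.0388, FDR 2.25e-28). MUC13, a transmembrane mucin of epithelia, rose from a low level, with 7.97, 5.37 and 5.77 CPM under vehicle and 27.4, 26 and 26 CPM under SNX631 (log2 FC 2.05 ± 0.0878, FDR 4.01e-27). SFN encodes 14-3-3 sigma, an epithelial adaptor protein that restrains cell cycle entry after DNA damage. It was at 272, 242 and 258 CPM under vehicle and 518, 517 and 498 CPM under SNX631, so that the lowest SNX631 library was well above the highest vehicle library (log2 FC 0.99 ± 0.0457). The GTPase-activating proteins ARHGAP6 and ARHGAP20 rose as well, by 1.88 and 1.20 on the log2 scale. CSRNP2, a nuclear protein, EPDR1, a lysosomal protein, and HACD2, a dehydratase that elongates very long chain fatty acids, rose by 1.08, 1.08 and 0.88.

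By fold change, the DEGs with a mean of at least 1 CPM were led by TRG-AS1 and SCGN. SCGN, secretagogin, is a calcium-binding protein of neuroendocrine cells, and it was measured at 2.35, 1.89 and 2.18 CPM under vehicle and 13.8, 9.2 and 10.7 CPM under SNX631 (log2 FC 2.38 ± 0.157, FDR 5.88e-19). The 20 largest rises of this kind ran from a log2 FC of 2.38 for TRG-AS1 down to 1.88 for ODAM, a secreted protein first known from enamel. Among them, grouped after their values were seen, were MYL9, a myosin light chain (2.02), MYLK, the kinase that phosphorylates it (1.94), and EDNRA, an endothelin receptor (2.00). MYL9 was at 2.23, 1.26 and 1.23 CPM under vehicle and 6.03, 6.32 and 6.96 CPM under SNX631, and MYLK at 1.01, 1.01 and 1.36 CPM under vehicle and 5.72, 3.36 and 4.02 CPM under SNX631. Every SNX631 library exceeded every vehicle library in both genes. The transcription factors TFCP2 (2.32) and EVX1, a homeobox protein (2.28), and the sialyltransferases ST8SIA6 (2.08) and ST8SIA1, the synthase of ganglioside GD3 (2.03), also belonged to this group. So did the oxidoreductases CYP4F8, a fatty acid and prostaglandin hydroxylase of the seminal vesicle (2.03), and AOX1, aldehyde oxidase (2.01). IGFBP1, a secreted binding protein for insulin-like growth factors, was at 4.41, 1.26 and 2.09 CPM under vehicle and 12.3, 7.6 and 14.2 CPM under SNX631, which is a wide spread within both groups though they did not overlap (log2 FC 2.11 ± 0.289). Its call was lost in fits to the 6 libraries alone and to the 12 Rv1-Luc libraries. The remaining members were KRT15, CERKL, a ceramide kinase-like protein (2.29), MUC13, GRM3, a glutamate receptor (2.01), CCDC85A, a coiled-coil protein (1.99), PDK4 and ARHGAP6.

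**Figure D2:**
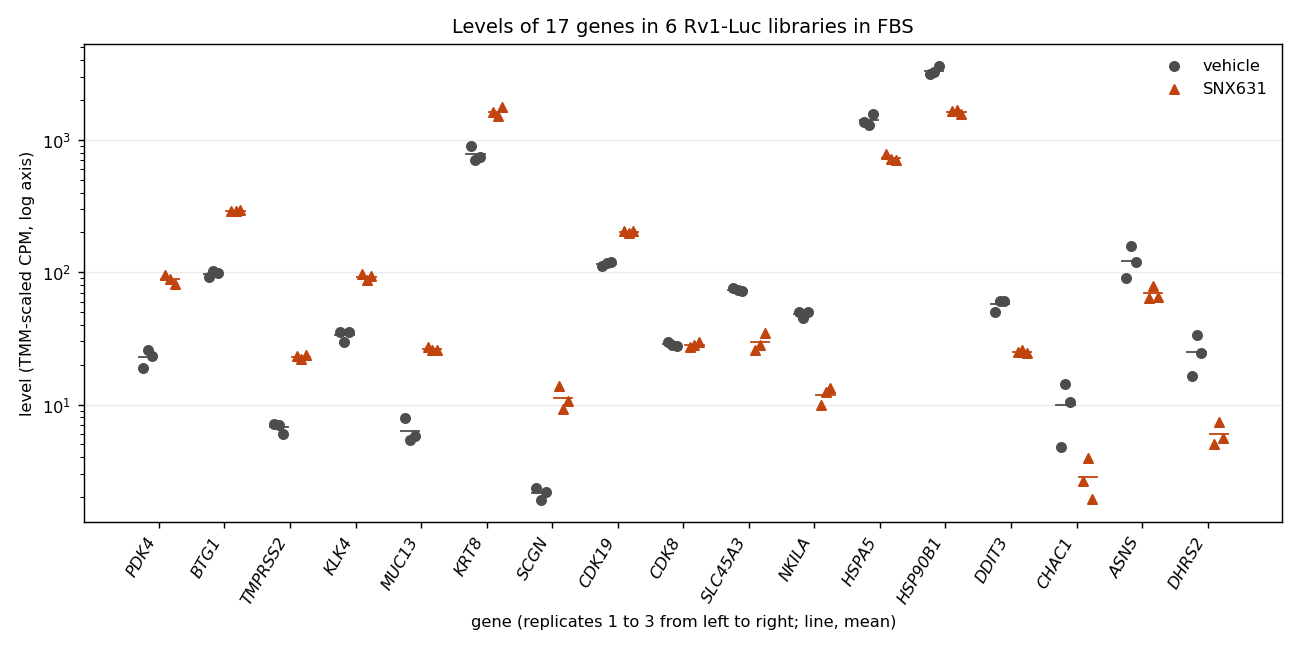
Levels of 17 genes in CPM on a log axis, with a grey circle for each vehicle library and an orange triangle for each SNX631 library, replicates 1 to 3 from left to right, and a line at the mean of each group. In the 16 genes other than CDK8 the 2 groups do not overlap, with PDK4 to CDK19 higher and SLC45A3 to DHRS2 lower under SNX631.

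Among the genes that fell, the lowest p-values belonged to transcripts of the T cell receptor gamma locus. Prostate epithelial cells transcribe part of this locus, and TARP is the protein they make from it in an alternate reading frame. TRGC1 was measured at 403, 389 and 367 CPM under vehicle and 130.2, 133 and 127 CPM under SNX631 (log2 FC -1.57 ± 0.0392, FDR 6.34e-39) and TARP at 339, 324 and 305 CPM under vehicle and 105, 110.1 and 107 CPM under SNX631 (log2 FC -1.59 ± 0.0414, FDR 4.07e-38). The joining segments TRGJP (-1.53) and TRGJ1 (-1.69) fell with them. The counts of these 4 genes were fractional in 89.6% to 97.9% of the libraries, as they are where a read is split between genes, and they are not 4 independent measurements. TRG-AS1, annotated as antisense to this locus, moved the other way, at 0.809, 1.09 and 0.772 CPM under vehicle and 4.27, 4.67 and 5.05 CPM under SNX631 (log2 FC 2.38 ± 0.199, FDR 8.8e-15). The libraries are strand-specific, but the strand setting of the counting is not given in the sources used here. Of the other genes of the locus, TRGC2 fell (log2 FC -1.10) and TRGV9 rose (0.90), both named here after their values were seen.

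NKILA, a long noncoding RNA that restrains NF-kappaB, fell further than any other gene above 20 CPM. It was at 49.9, 45.2 and 50.1 CPM under vehicle and 9.98, 12.3 and 13.4 CPM under SNX631, with no overlap (log2 FC -2.02 ± 0.077, FDR 1.56e-29). PMEPA1, an androgen-induced gene that lies beside it on the other strand, was at 924, 899.7 and 897 CPM under vehicle and 861, 839 and 829.9 CPM under SNX631, a log2 FC of -0.11 ± 0.0381. DHRS2, a mitochondrial reductase, was at 16.3, 33.7 and 24.3 CPM under vehicle and 5.06, 7.41 and 5.57 CPM under SNX631 (log2 FC -2.03 ± 0.172). Its vehicle replicates spread about 2-fold, and in a fit to the 6 libraries alone it was not a DEG. ALB, serum albumin, was at 71.2, 53.2 and 65.5 CPM under vehicle and 16.6, 18.4 and 22 CPM under SNX631 (log2 FC -1.73 ± 0.0893). PROC, the anticoagulant protein C (-1.67), DMGDH, a choline-degrading enzyme of mitochondria (-1.41), and UGT2B15 (-1.50) fell as well. The call of DMGDH was lost in a fit to the 6 libraries alone. RET, a receptor tyrosine kinase, was at only 2.06, 2.35 and 2.27 CPM under vehicle and 0.748, 0.548 and 0.796 CPM under SNX631 (log2 FC -1.68 ± 0.253). The other large falls were in CNTD1, a cyclin-like protein of meiosis (-1.77), HERC6, a ubiquitin ligase (-1.65), CLIC3, a chloride channel protein (-1.61), SLC22A31, a transporter (-1.50), GALNT12, an enzyme that starts mucin O-glycosylation (-1.47), and CHAC1 and NIBAN1, which are described with the stress genes.

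IGHG3 and JCHAIN also stood among the 20 largest falls. They encode an immunoglobulin heavy chain and the joining chain of antibodies, which plasma cells make. Summed over all immunoglobulin genes the vehicle libraries held 50.5, 64.2 and 31.5 CPM and the SNX631 libraries 13.5, 30.1 and 10.8 CPM. The groups did not overlap, and SNX631 replicate 2 came close to vehicle replicate 3. IGHG3 was at 0.728, 3.9 and 1.09 CPM under vehicle and 0.66, 0.511 and 0.438 CPM under SNX631 (log2 FC -1.83 ± 0.424), and without vehicle replicate 2 its log2 FC was -0.75 and it was not a DEG. Without SNX631 replicate 3 (-1.71) it was not a DEG either. In CSS the log2 FC of IGHG3 was 3.32, of opposite sign (FDR of the difference 1.6e-05). JCHAIN was at 3.56, 2.6 and 1.82 CPM under vehicle and 0.484, 1.39 and 0.318 CPM under SNX631, and in CSS its log2 FC was 1.43 (difference 3.26 ± 0.589, FDR 0.00128). Both calls were lost in fits to the 6 libraries alone and to the 12 Rv1-Luc libraries. Of the defining markers of plasma cells, TNFRSF17 had 0 counts and MZB1 1 to 5 counts in each library. SDC1, which luminal cells also express, rose, at 95.2, 74.6 and 85.1 CPM under vehicle and 164, 143 and 160.3 CPM under SNX631 (log2 FC 0.87 ± 0.0539). Of the 6 leukocyte markers, CD3E had 0 or 1 count per library and the other 5 were at 0.132 to 1.05 CPM. The part of other cells or of carried-over RNA in these values was not tested.

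Androgen-responsive genes moved in both directions. Of 27 tested, 4 rose and 2 fell, against 2.32% and 1.34% of all genes tested. The median log2 FC was -0.06, near that of all genes. This median was 0.17 without vehicle replicate 1 and 0.0181 without SNX631 replicate 2, so that its sign rests on these libraries. TMPRSS2, a serine protease of luminal cells under androgen control, was at 7.12, 7 and 6.04 CPM under vehicle and 23.1, 22.2 and 23.8 CPM under SNX631 (log2 FC 1.77 ± 0.0806, FDR 5.26e-26). KLK4, a kallikrein protease, was at 35.6, 29.6 and 35.1 CPM under vehicle and 96.6, 87.5 and 93.8 CPM under SNX631 (log2 FC 1.47 ± 0.0674, FDR 6.87e-25), and KLK15, another kallikrein, at 2.67, 1.26 and 1.36 CPM under vehicle and 5.54, 4.31 and 6.48 CPM under SNX631 (log2 FC 1.60 ± 0.191). All SNX631 libraries were above all vehicle libraries in these 3 genes. ELL2, a transcription elongation factor, rose, at 319, 237 and 267 CPM under vehicle and 596, 497 and 596 CPM under SNX631 (log2 FC 1.04 ± 0.0638). KLK3, which encodes prostate-specific antigen, behaved otherwise. It was at 10.5, 7.13 and 8.85 CPM under vehicle and 10.6, 9.06 and 11.5 CPM under SNX631, the groups overlapped and the log2 FC of 0.23 ± 0.122 had an FDR of 0.206. SLC45A3, prostein, a membrane protein of prostate epithelium, fell, at 75.8, 72.9 and 71.7 CPM under vehicle and 25.8, 28.2 and 35 CPM under SNX631 (log2 FC -1.31 ± 0.0691, FDR 3.99e-23). HPGD, which inactivates prostaglandins, fell by 0.67 on the log2 scale. FKBP5, a chaperone of steroid receptors, was higher in every SNX631 library but short of 1.5-fold, with a log2 FC of 0.42 ± 0.0435.

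Transcription factors of luminal epithelium and steroid receptors, listed together, moved in both directions. Of 19 tested, 5 rose and none fell as DEGs, against 2.32% and 1.34% of all genes tested. At an FDR under 0.05 with no fold limit 8 were higher and 5 lower, against 10.9% and 9.45% of all genes tested. The DEGs were GATA3, a luminal GATA factor, EHF and ELF3, epithelial ETS factors, and ETV4 and ETV5, ETS factors of the PEA3 group. GATA3 was at 1.13, 1.47 and 1.18 CPM under vehicle and 4.62, 3.76 and 4.14 CPM under SNX631 (log2 FC 1.72 ± 0.187), and EHF at 78, 63.6 and 67.8 CPM under vehicle and 155, 138 and 153 CPM under SNX631 (log2 FC 1.09 ± 0.0563, FDR 8.99e-23). ELF3 was at 77.7, 57.7 and 60.7 CPM under vehicle and 109.8, 90.2 and 119 CPM under SNX631, and its log2 FC was 0.70 ± 0.0741. ETV4 rose by 0.81 and ETV5 by 0.66 on the log2 scale. FOXA1, a pioneer factor that opens chromatin in luminal cells, was at 668, 748 and 731 CPM under vehicle and 542, 538 and 527 CPM under SNX631. It was lower in every SNX631 library, with a log2 FC of -0.42 ± 0.0376 (FDR 1.24e-13) that stayed short of 1.5-fold. HOXB13, a prostate homeobox factor, was higher in every SNX631 library, also short of 1.5-fold (0.26 ± 0.0385). The median over the 19 genes was 0.19, and it moved between 0.07 and 0.34 when single libraries were left out, the lowest without SNX631 replicate 2 and the highest without vehicle replicate 2.

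Keratins were mostly higher under SNX631. Of 16 listed, 8 were expressed highly enough to be tested. All 8 had a positive log2 FC, and 6 were DEGs, all of them higher, against 2.32% of all genes tested. The median was 1.34. This median was 0.84 at a minimum count of 50, with 4 DEGs, and 0.95 in fits to the 6 libraries alone and to the 12 Rv1-Luc libraries, with 2 and 3 DEGs. The calls of KRT7, KRT15 and KRT19 were lost with the 6 libraries alone, and those of KRT7 and KRT19 also with the 12. Keratins are the intermediate filament proteins of epithelial cells, and KRT8 with its partner KRT18 is the pair typical of simple and luminal epithelium. KRT8 was at 892, 701 and 748 CPM under vehicle and 1615, 1506 and 1761 CPM under SNX631 (log2 FC 1.06 ± 0.0526, FDR 8.99e-23). KRT18 was at 411, 392 and 385 CPM under vehicle and 477, 503 and 504 CPM under SNX631, higher in every SNX631 library but with a log2 FC of only 0.32 ± 0.0438. KRT19 was at 698, 386 and 496 CPM under vehicle and 955, 781 and 1112 CPM under SNX631, where vehicle replicate 1 lay nearest to the SNX631 libraries (log2 FC 0.85 ± 0.128). KRT7 was at 186, 88.7 and 115.9 CPM under vehicle and 199.8, 158 and 259 CPM under SNX631, and the groups overlapped through vehicle replicate 1 (log2 FC 0.65 ± 0.166). It was no longer a DEG without SNX631 replicate 3 (0.45), vehicle replicate 2 (0.44) or vehicle replicate 3 (0.58). KRT15 was at 0.971, 0.335 and 0.363 CPM under vehicle and 3.61, 1.39 and 3.66 CPM under SNX631, and KRT80 at 0.243, 0.168 and 0.227 CPM under vehicle and 1.06, 0.949 and 1.19 CPM under SNX631, both low but without overlap. KRT81, a hair keratin, was at or under 3 counts in every vehicle library and rose at least 2.25-fold over a floor of 3 counts per library. Its call was lost without SNX631 replicate 2 or 3 or without vehicle replicate 2 or 3, with log2 FC of 2.62, 2.22, 2.09 and 2.14. It was also lost without the low-count filter, with the replicate number as a block and in DESeq2. KRT86, another hair keratin, had a log2 FC of 1.63 ± 0.722 and was not a DEG, and KRT81 and KRT86 are similar enough in sequence that reads may be split between them. Summed over the keratin list the vehicle libraries held 2189, 1568 and 1746 CPM and the SNX631 libraries 3252, 2949.9 and 3642 CPM.

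Genes of neuroendocrine and secretory cells rose in part. Of 24 tested, 7 were DEGs, all higher, against 2.32% of all genes tested, and the median log2 FC was 0.25. CHGB, a chromogranin of secretory granules, was at 22.1, 27 and 27.3 CPM under vehicle and 52.8, 50.8 and 41.6 CPM under SNX631 (log2 FC 0.93 ± 0.0704), and RIMS3, a regulator of vesicle exocytosis, at 55.7, 51 and 49.9 CPM under vehicle and 101, 99.9 and 99.2 CPM under SNX631 (log2 FC 0.94 ± 0.0478). Neither gene showed overlap between the groups. RFX6, a transcription factor of endocrine cells, rose, at 0.162, 0.0838 and 0.272 CPM under vehicle and 1.41, 0.949 and 1.47 CPM under SNX631 (log2 FC 2.85 ± 0.361). PCSK1, a prohormone convertase, had at most 3 counts in each vehicle library and rose at least 1.77-fold over the floor, and its call was lost without SNX631 replicate 3 (log2 FC 3.05) or vehicle replicate 2 (3.09) or 3 (3.13). RAB27B, a GTPase of vesicle docking, and DDC, which makes dopamine and serotonin, were called with a log2 FC of 0.62 and 0.69. Without vehicle replicate 1 these were 0.58 and 0.55, and RAB27B and DDC were then not DEGs, nor was DDC without SNX631 replicate 3 (0.56). The classic neuroendocrine markers were not DEGs. SYP, synaptophysin, was at 82.3, 83.2 and 78.9 CPM under vehicle and 79.7, 77.8 and 74.8 CPM under SNX631 (log2 FC -0.07 ± 0.0552, FDR 0.388), ENO2, neuronal enolase, had a log2 FC of -0.09 ± 0.0497, and CHGA, chromogranin A, stayed between 0.0405 and 0.272 CPM.

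Of the regulators and targets of the ATF4 stress response, some fell and none rose. ATF4 is the transcription factor that is translated when the initiation factor eIF2 is phosphorylated under amino acid shortage or endoplasmic reticulum stress, and with its target DDIT3, also called CHOP, it drives genes of amino acid supply, redox defence and cell death. Of 22 genes tested, 5 fell, against 1.34% of all genes tested. A negative log2 FC was found for 18, and the median was -0.44. At an FDR under 0.05 with no fold limit 14 of the 22 were lower (9.45% of all genes tested). DDIT3 was at 50.1, 60.8 and 60.6 CPM under vehicle and 25.1, 25.7 and 24.7 CPM under SNX631 (log2 FC -1.18 ± 0.0565, FDR 4.97e-25). The SNX631 libraries were within 1 CPM of each other, and all of them lay far below the lowest vehicle library. CHAC1, an enzyme that degrades glutathione, was at 4.77, 14.3 and 10.5 CPM under vehicle and 2.64, 3.94 and 1.95 CPM under SNX631 (log2 FC -1.77 ± 0.234), and NIBAN1, a stress-induced regulator of translation, at 11, 18.7 and 13.5 CPM under vehicle and 5.28, 5.44 and 4.65 CPM under SNX631 (log2 FC -1.49 ± 0.128). SLC7A11, the cystine transporter, was at 54.1, 103 and 84.1 CPM under vehicle and 36.2, 42.8 and 29.9 CPM under SNX631 (log2 FC -1.14 ± 0.143), and ADM2, a peptide hormone, at 45.5, 80.3 and 70.7 CPM under vehicle and 34, 44.6 and 31.7 CPM under SNX631 (log2 FC -0.82 ± 0.12). In these 4 genes the groups did not overlap, but vehicle replicate 1 was the lowest vehicle library in each. In a fit to the 6 libraries alone the calls of CHAC1, SLC7A11 and ADM2 were lost. Those of CHAC1 and ADM2 were also lost in a fit to the 12 Rv1-Luc libraries. The list then held 3 and 4 DEGs, as each of these fits called another member that the fit to all 48 libraries did not. ATF4 itself was at 484, 606 and 570.2 CPM under vehicle and 394, 453 and 369.8 CPM under SNX631, lower in every SNX631 library but short of 1.5-fold (log2 FC -0.45 ± 0.0524, FDR 1.55e-09). TRIB3, a pseudokinase induced by ATF4, had a log2 FC of 0.02 ± 0.0732, and GDF15, a secreted stress cytokine, one of 0.43 ± 0.13, and neither was a DEG.

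Few enzymes and transporters of amino acid supply were DEGs, and most of them had a negative log2 FC. Of 20 genes of serine, one-carbon, asparagine and proline synthesis 15 had a negative log2 FC, and the median was -0.17. Against 1.34% of all genes tested, 2 of the 20 fell, ASNS and ALDH1L2. Neither was called in a fit to the 6 libraries alone or to the 12 Rv1-Luc libraries. ASNS, asparagine synthetase, was at 90.4, 158 and 119 CPM under vehicle and 64.3, 78.1 and 64.9 CPM under SNX631 (log2 FC -0.82 ± 0.0956, FDR 2.83e-08). ALDH1L2, a mitochondrial folate enzyme, was at 99.8, 179 and 142 CPM under vehicle and 86.5, 109.6 and 83.3 CPM under SNX631, with overlap, and its log2 FC of -0.59 ± 0.12 lay at the limit. Its call was lost without SNX631 replicate 1 (-0.54) or 3 (-0.51), without vehicle replicate 2 (-0.37) or 3 (-0.58) and with the replicate number as a block (-0.57). PHGDH and PSAT1, the enzymes that begin serine synthesis, had log2 FC of -0.29 ± 0.0969 and -0.38 ± 0.0711 and overlapping groups. Of 16 amino acid transporters SLC7A11 alone was a DEG. SLC7A5, which carries leucine, was at 367, 456 and 414 CPM under vehicle and 314, 323 and 295 CPM under SNX631, lower in every SNX631 library (log2 FC -0.41 ± 0.0532). None of the 20 cytosolic aminoacyl-tRNA synthetases was a DEG, and their median was -0.08. The mean level of the 22 ATF4 regulators, centred per gene on the log2 scale, was 0.0161, 0.388 and 0.253 in the vehicle libraries and -0.221, -0.193 and -0.244 in the SNX631 libraries. Vehicle replicate 1 thus lay between the other vehicle libraries and the SNX631 libraries. Without it the median was -0.52, with 7 genes lower and 1 higher, and without vehicle replicate 2 it was -0.36 with 5 lower.

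**Figure D3:**
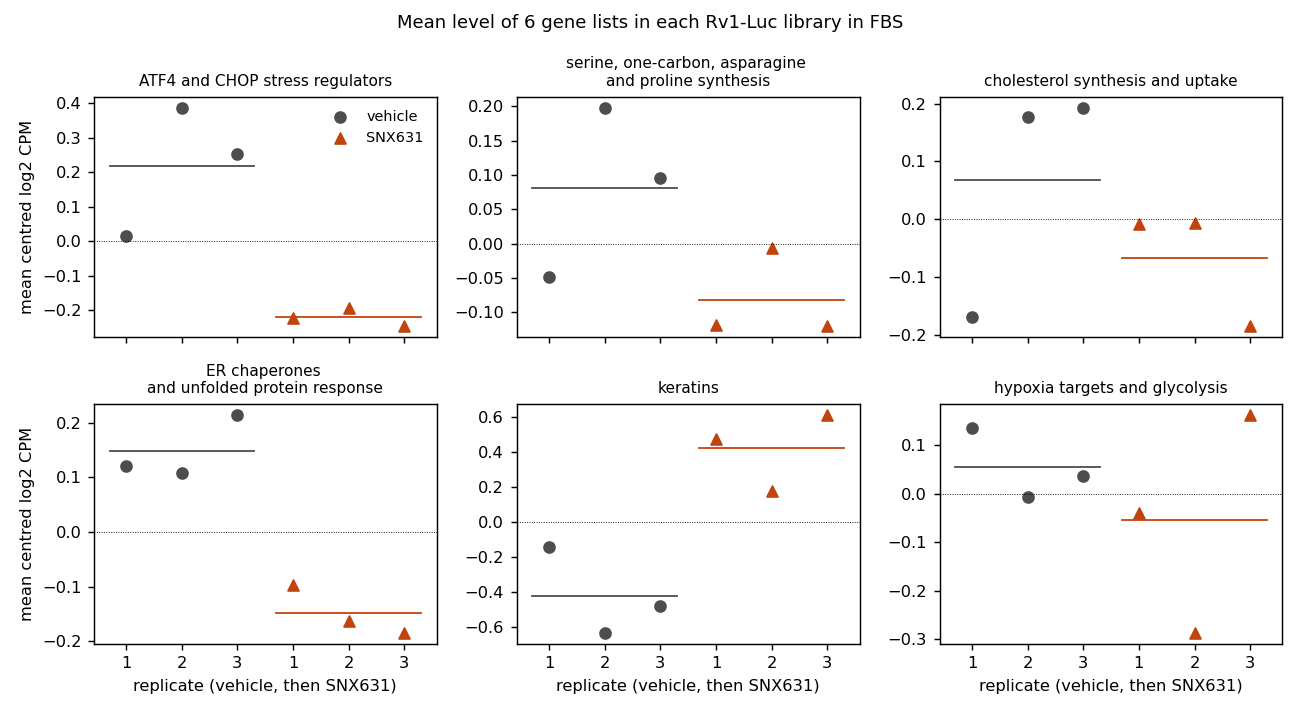
Each panel shows, for a gene list, the mean over its genes of the log2 CPM centred per gene, in replicates 1 to 3 under vehicle (grey circles) and SNX631 (orange triangles), with a line at the group mean. The groups do not overlap for the ATF4, chaperone and keratin lists, whereas vehicle replicate 1 is the lowest vehicle library for the ATF4, serine and cholesterol lists, and the groups of the serine, cholesterol and hypoxia lists overlap.

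ATF4 acts through C/EBP-ATF response elements. Promoter sequences are shown for CHAC1, ASNS and HERPUD1, DEGs of the stress, amino acid and chaperone lists with such an element near their start. The letters TGATGNAA, on either strand, were searched in the RefSeq promoter windows of build GRCh38.p14, which run from 250 bases before to 50 bases after each start. They were found in 3.62% of all 35116 windows, and in 5 of the 18 ATF4 regulators, 3 of 13 amino acid synthesis genes and 6 of 14 transporters that matched the table by symbol. Of the genes of these lists that held the letters, only CHAC1 and ASNS were DEGs. The others were ATF3, CEBPG, FGF21, JDP2, GOT1, MTHFD1L, SLC1A3, SLC1A4, SLC1A5, SLC38A1, SLC3A2 and SLC7A1. Among all genes tested 2.83% of those matched held the letters, against 9 (5.17%) of the DEGs that fell and 14 (4.5%) of those that rose. A match is a description of the letters and not of a bound site. The table held no promoter for SLC7A11 and ALDH1L2, which were not searched. Of the other DEGs of these lists it was present in CHAC1, 209 bases before the start, and ASNS, 68 bases before it, and it also occurred in the chaperone-list gene HERPUD1, 176 bases before the start. The stretches are chr15:40953237-40953294 (plus strand) for CHAC1, chr7:97872444-97872501 (minus strand) for ASNS and chr16:56931941-56931998 (plus strand) for HERPUD1, written 5′ to 3′ on the strand of the gene, and capitals mark the element, which lies on the opposite strand in CHAC1 and HERPUD1.
CHAC1: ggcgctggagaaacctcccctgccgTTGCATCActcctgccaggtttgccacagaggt
ASNS: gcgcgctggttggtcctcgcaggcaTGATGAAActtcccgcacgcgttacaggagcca
HERPUD1: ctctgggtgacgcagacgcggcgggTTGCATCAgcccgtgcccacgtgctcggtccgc

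Some of the most abundant chaperones of the endoplasmic reticulum fell as well. These proteins fold and modify secreted and membrane proteins, and the unfolded protein response raises them when folding is overloaded. Of 30 genes tested 4 fell and none rose, against 1.34% and 2.32% of all genes tested. A negative log2 FC was found for 27, and the median was -0.25. At an FDR under 0.05 with no fold limit 20 were lower, against 9.45% of all genes tested. HSP90B1, the chaperone GRP94, was at 3150.4, 3229 and 3631 CPM under vehicle and 1656, 1682 and 1571 CPM under SNX631 (log2 FC -1.03 ± 0.0408, FDR 1.01e-28). HSPA5, the master chaperone BiP, was at 1371, 1293 and 1564 CPM under vehicle and 779, 712 and 708 CPM under SNX631 (log2 FC -0.94 ± 0.0502, FDR 3.12e-22). Both are very abundant, and no library of either group crossed into the other. PDIA4, a protein disulfide isomerase, was at 784, 714 and 886 CPM under vehicle and 406, 366 and 359 CPM under SNX631 (log2 FC -1.08 ± 0.0485, FDR 4.34e-26), and HERPUD1, part of the degradation machinery for misfolded proteins, at 169, 193 and 204 CPM under vehicle and 121, 116.5 and 105 CPM under SNX631 (log2 FC -0.73 ± 0.047). Members short of 1.5-fold included CALR, calreticulin (-0.38 ± 0.0434), XBP1, a transcription factor of this response (-0.35 ± 0.0381), and ATF6, a membrane-bound sensor (-0.12 ± 0.0453). In all 3 every SNX631 library was below every vehicle library. Summed over the list the vehicle libraries held 12140.3, 11801 and 13255 CPM and the SNX631 libraries 8449.6, 8216 and 8040.0 CPM. Unlike the ATF4 list, vehicle replicate 1 lay within the range of the other vehicle libraries here, and the median was -0.22 to -0.29 when single libraries were left out.

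The promoters of the 2 most abundant of these chaperones hold the endoplasmic reticulum stress element, spelled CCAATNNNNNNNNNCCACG and searched on both strands in the same windows. It was rare, in 0.0769% of all windows, but present in 8 of the 28 chaperone-list genes that matched the table, of which HSPA5 and HSP90B1 were DEGs. The other 6 were CALR, CANX, CRELD2, ERO1B, PDIA6 and XBP1, and none of these was a DEG. In HSPA5 the element begins 66 bases before the start (chr9:125241371-125241429 (minus strand)), and HSP90B1 has it 194 bases before the start and, on the opposite strand, 89 bases before it (chr12:103930206-103930349 (plus strand)). Capitals mark the element in each stretch, which is written 5′ to 3′ on the strand of the gene.
HSPA5: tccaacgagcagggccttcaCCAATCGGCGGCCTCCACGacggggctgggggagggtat
HSP90B1: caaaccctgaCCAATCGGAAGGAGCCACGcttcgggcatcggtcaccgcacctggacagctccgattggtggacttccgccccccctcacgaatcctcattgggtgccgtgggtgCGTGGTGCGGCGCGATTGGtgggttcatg

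Several smaller groups changed in part. Androgen-inactivating glucuronosyltransferases fell, in 3 of the 12 genes tested for androgen synthesis and glucuronidation, against 1.34% of all genes tested. UGT2B15 was at 5.95, 7.17 and 8.81 CPM under vehicle and 2.77, 2.19 and 2.78 CPM under SNX631 (log2 FC -1.50 ± 0.126), UGT2B11 had a log2 FC of -0.97 ± 0.197, and UGT2B28, near the floor at 0 to 1.22 CPM, one of -2.38 ± 0.483. These paralogs are similar in sequence and may share reads. Their relative UGT2B17 was higher in every SNX631 library at 0.126 to 0.968 CPM, with a log2 FC of 1.48 ± 0.45 and an FDR of 0.0147, and was not a DEG. Of 29 genes of cholesterol synthesis and uptake HMGCS1 alone was called, at 579, 1099 and 977 CPM under vehicle and 549, 610.0 and 437 CPM under SNX631. The groups overlapped through vehicle replicate 1, and without vehicle replicate 2 the log2 FC of -0.73 ± 0.134 became -0.55 and it was not a DEG. INSIG1, a target of the sterol-sensing factor SREBP, had overlapping groups as well, with a log2 FC of -0.47 ± 0.104.

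Of 27 NRF2 antioxidant genes 4 fell and 1 rose, against 1.34% and 2.32% of all genes tested. SLC7A11 is described with the ATF4 targets. FTL, ferritin light chain, was at 364, 356 and 345 CPM under vehicle and 221, 228 and 249.5 CPM under SNX631 (log2 FC -0.61 ± 0.0536, -0.57 and not a DEG without SNX631 replicate 1). ABCC2, an efflux pump for glutathione conjugates, rose, at 18.1, 11.6 and 14.1 CPM under vehicle and 28.7, 23.1 and 30.1 CPM under SNX631 (log2 FC 0.90 ± 0.12). NQO1, the textbook NRF2 target, overlapped between groups (0.18 ± 0.0933). GPX2 and OSGIN1 were called lower, and both calls were lost when single libraries were left out, for GPX2 without vehicle replicate 1 (-0.42) or SNX631 replicate 2 (-0.59), and for OSGIN1 without SNX631 replicate 1 (-0.68) or 2 (-0.56) or vehicle replicate 2 (-0.65) or 3 (-0.72). In polyamine synthesis AMD1, which makes the aminopropyl donor, rose, at 394, 338 and 354 CPM under vehicle and 694, 598 and 688 CPM under SNX631 (log2 FC 0.87 ± 0.0457, FDR 3.99e-23). SMOX, spermine oxidase, rose as well (log2 FC 0.73 ± 0.18), a call lost without SNX631 replicate 3 (0.54) or vehicle replicate 3 (0.66). ODC1, the enzyme at the entry of the pathway, was lower in every SNX631 library and short of 1.5-fold (-0.29 ± 0.0385).

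Among Wnt pathway genes 5 of 35 rose and 1 fell, against 2.32% and 1.34% of all genes tested. RNF43, a ubiquitin ligase that removes Wnt receptors, was at 15.4, 11.6 and 12.5 CPM under vehicle and 24, 23.5 and 25.5 CPM under SNX631 (log2 FC 0.88 ± 0.0793), and LGR5, a receptor for R-spondins, at 1.98, 1.8 and 2.13 CPM under vehicle and 3.78, 3.29 and 3.38 CPM under SNX631 (log2 FC 0.82 ± 0.165). Both were higher in every SNX631 library. AXIN2, a general target of beta-catenin, had a log2 FC of 0.32 ± 0.0463, and CTNNB1, which encodes beta-catenin, -0.02 ± 0.0336. The calls of TCF7L1, WNT7B and DKK1 at log2 FC of 0.59, 0.59 and 0.61 were lost when single libraries were left out, down to 0.49, 0.51 and 0.48 without vehicle replicate 2. TCF7L1 was also lost without SNX631 replicate 2 (0.55), WNT7B without SNX631 replicate 1 (0.52) or vehicle replicate 3 (0.56), and DKK1 without SNX631 replicate 2 (0.50) or vehicle replicate 3 (0.56). FZD8, a Wnt receptor, was called lower at -0.62, and not without SNX631 replicate 3 (-0.57) or vehicle replicate 3 (-0.55).

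Of 30 immediate-early and AP-1 genes 2 rose and 1 fell, against 2.32% and 1.34% of all genes tested. BTG1 and the nuclear receptor NR4A1 (0.79 ± 0.0739) rose. EGR1, a zinc finger factor of the early growth response, fell, at 2.47, 4.28 and 3.59 CPM under vehicle and 1.72, 2.01 and 1.43 CPM under SNX631 (log2 FC -0.99 ± 0.172). In the list of junction and mesenchymal genes FN1, fibronectin, rose, at 9.71, 9.22 and 9.67 CPM under vehicle and 27.2, 20.3 and 23.4 CPM under SNX631 (log2 FC 1.30 ± 0.135) and CLDN4, a claudin of tight junctions, at 357, 278 and 313 CPM under vehicle and 581, 483 and 502 CPM under SNX631 (log2 FC 0.72 ± 0.0637). E-cadherin, CDH1, had a log2 FC of 0.08 ± 0.0408 and vimentin, VIM, one of 0.25 ± 0.112. The fibroblast markers LUM, a small proteoglycan, and COL3A1, a collagen, were also DEGs, LUM at 3.93, 2.72 and 3.45 CPM under vehicle and 6.99, 6.03 and 7.52 CPM under SNX631 and COL3A1 at 0.324, 0.126 and 0 CPM under vehicle and 0.572, 0.402 and 0.796 CPM under SNX631. The call of COL3A1 was lost without SNX631 replicate 3 (log2 FC 1.60) or vehicle replicate 2 (1.75) or 3 (1.35). Among the other fibroblast markers COL1A1 was at 5.65 to 6.63 CPM. COL1A2 had 0 to 2 counts, DCN 0 to 10 and PDGFRB 2 to 16 counts per library. Of the 5 fibroblast markers tested, 3 had a positive log2 FC and 2 a negative one.

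Lists of growth and housekeeping functions held few or no DEGs. As 3.67% of all genes tested were called, lists of this size would hold few DEGs at that share. There were none among 32 genes of G2/M and mitosis (median log2 FC 0.02), 32 of the MYC network and ribosome biogenesis (0.07), 44 cytosolic ribosomal proteins (0.05), 42 nuclear-encoded respiratory chain subunits (0.05), 29 hypoxia targets and glycolytic enzymes (-0.09), 15 metallothionein and zinc response genes (-0.01) and 12 of the aryl hydrocarbon receptor pathway (-0.02). At an FDR under 0.05 with no fold limit, which 20.3% of all genes met, these 7 lists held 11, 10, 4, 4, 12, 4 and 3 genes. Set against the size of each list, this was above 20.3% in all but the ribosomal and respiratory chain lists. MYC was at 309, 279 and 280.4 CPM under vehicle and 331, 323 and 292 CPM under SNX631 (log2 FC 0.12 ± 0.0477, FDR 0.0566), and MKI67, a marker of cycling cells, at 389.9, 423 and 423 CPM under vehicle and 334, 367 and 360.4 CPM under SNX631 (log2 FC -0.22 ± 0.0889, FDR 0.0805). Of 39 genes of G1/S and DNA replication CCNE1, cyclin E, alone was a DEG, at 7.57, 7.55 and 7.49 CPM under vehicle and 11.6, 11.6 and 12.5 CPM under SNX631 (log2 FC 0.66 ± 0.0975, FDR 2.76e-07). Of 26 p53 targets GADD45A alone rose, at 24.4, 27.4 and 25.1 CPM under vehicle and 39.5, 40.5 and 41.5 CPM under SNX631 (log2 FC 0.66 ± 0.0517). The remaining lists each held 1 or 2 DEGs. They included CRYAB, a small heat shock protein (2.36), ELOVL5, a fatty acid elongase (0.66), INHBA, an activin subunit (1.10), TUBA4A, an alpha-tubulin (0.76), and DUSP6, a phosphatase of ERK (0.66, 0.43 and not called without vehicle replicate 1), all of which rose, and the interferon regulators IRF1 (-0.64) and IRF7 (-0.85), which fell. CRYAB is not among the 20 largest rises given above, because its mean was below 1 CPM or its groups overlapped. CDKN1A, the kinase inhibitor p21 and another p53 target, was lower in every SNX631 library and short of 1.5-fold (-0.47 ± 0.0468, FDR 5.49e-12).

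**Figure D4:**
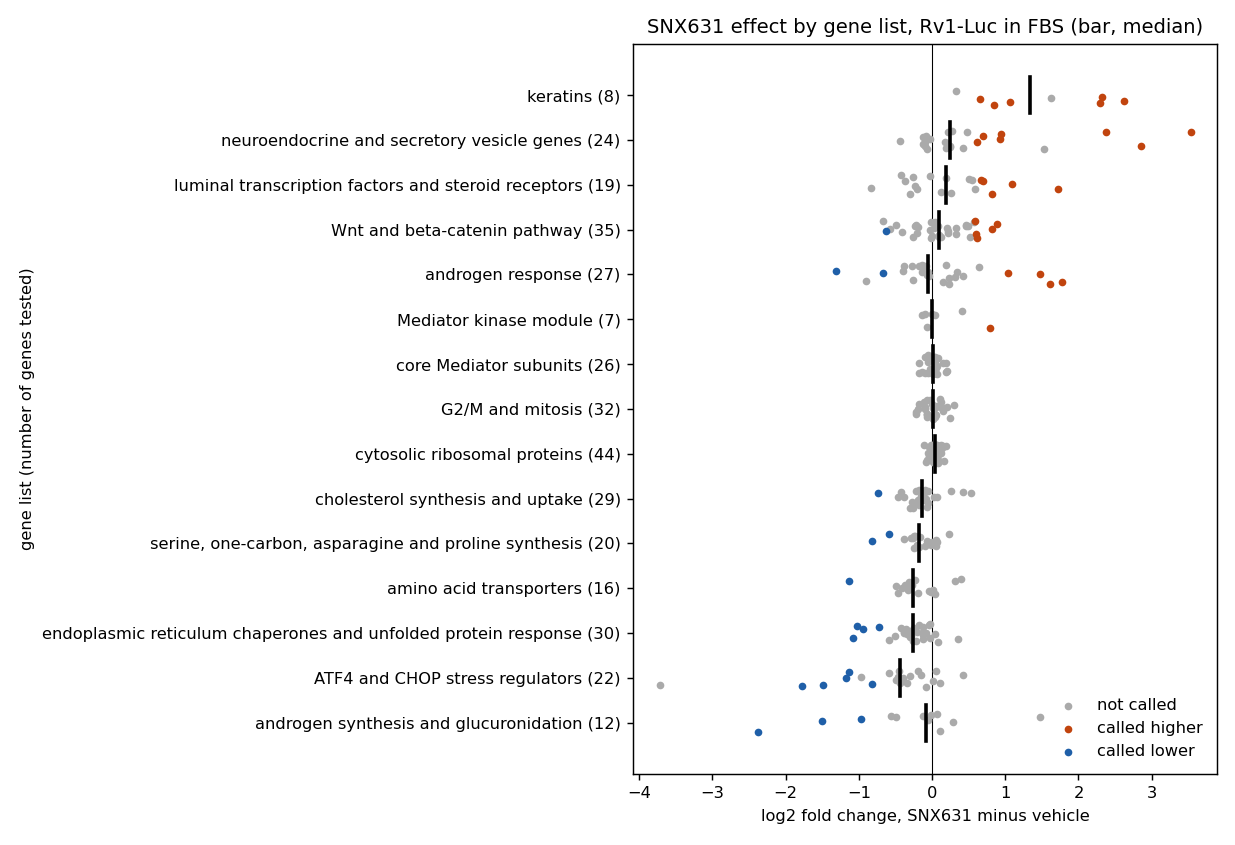
Log2 FC of every tested gene in 15 gene lists, with 1 point per gene, grey for genes not called, orange for DEGs that rose and blue for DEGs that fell, and a black bar at the median of the list. The keratins lie to the right (median 1.34), the ATF4 and CHOP regulators (-0.44) and the chaperones (-0.25) to the left, and the ribosomal, G2/M and core Mediator genes close to 0.

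Whether the serum alters the drug response was tested by setting the effect in CSS against that in FBS. Stripped and complete serum were compared as a whole, and androgen itself was not tested. The effects differed for 16 genes (0.0800% of those tested), of which 11 were more positive in CSS and 5 more negative. Of the DEGs found in FBS, 304 of the 465 that rose (65.4%, and 62.0% of the 490 that rose in CSS) and 149 of the 269 that fell (55.4%, and 46.1% of the 323) were also called in the same direction in CSS, where the share of all genes called was 4.06%. The median log2 FC of these genes in CSS was 0.85 and -0.74. TMPRSS2 (1.77 in FBS and 1.96 in CSS), BTG1 (1.57 and 1.75), HSPA5 (-0.94 and -0.95) and DDIT3 (-1.18 and -1.32) are examples with similar values. KANSL1L, a subunit of a chromatin-acetylating complex, differed with the lowest p-value, with a log2 FC of 0.20 in FBS and 1.09 in CSS (difference 0.89 ± 0.0966, FDR 1.5e-08). ACADL, an enzyme of fatty acid oxidation, fell in FBS, at 72.1, 72.1 and 73.1 CPM under vehicle and 42.7, 42.2 and 40.3 CPM under SNX631, and in CSS its log2 FC was -0.09 (difference 0.70 ± 0.0815, FDR 3.53e-08). NKILA fell less in CSS (-1.33, FDR of the difference 0.000729), and SEMA6B, a semaphorin, rose in FBS by 1.15 with -0.0032 in CSS (FDR 0.000447). The count of 16 was unstable. It was 8 without SNX631 replicate 1 in FBS, 31 without SNX631 replicate 2, 27 without vehicle replicate 1, and 2 in a fit to the 12 Rv1-Luc libraries alone.

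The response of the subline was next compared with that of the parental line in the same medium. The effects differed for 35 genes (0.175%), 23 of them more positive in Rv1-Luc. Of the Rv1-Luc DEGs, 209 that rose (44.9%, and 59.7% of the 350 that rose in Rv1-WT) and 72 that fell (26.8%, and 55.8% of the 129) were called in the same direction in Rv1-WT, where 2.39% of all genes were called. Their median log2 FC in Rv1-WT was 0.72 and -0.51. LRRC8A, a subunit of the volume-regulated anion channel, was at 277, 243 and 246 CPM under vehicle and 452, 427 and 441 CPM under SNX631 in Rv1-Luc (log2 FC 0.78 ± 0.0411), against a log2 FC of -0.10 in Rv1-WT (difference 0.88 ± 0.0578, FDR 2.55e-17). VIL1, the microvillus protein villin, rose, at 24, 19.7 and 23.6 CPM under vehicle and 64, 50.8 and 58.8 CPM under SNX631 (log2 FC 1.36 ± 0.0714), against 0.26 in Rv1-WT (FDR of the difference 4.63e-12). ZNF385B, a zinc finger protein, rose by 1.65 in Rv1-Luc and had 0.42 in Rv1-WT (FDR 3.63e-10). KLK3 had a log2 FC of -1.27 in Rv1-WT and 0.23 in Rv1-Luc, where its groups overlapped and it was not a DEG (difference 1.49 ± 0.196, FDR 4.49e-07). PTHLH, a parathyroid hormone-like peptide, differed in sign, with 1.02 in Rv1-Luc and -1.09 in Rv1-WT (FDR of the difference 2.14e-08). SYT4, a synaptotagmin, had a log2 FC of 1.21 in Rv1-WT and 0.48 in Rv1-Luc, where it was not a DEG (difference -0.73 ± 0.0705, FDR 6.88e-11). The count was 62 without Rv1-Luc vehicle replicate 1 and 53 without Rv1-Luc SNX631 replicate 2 in FBS, and 20 in a fit to the 12 libraries compared.

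The lines without an active Mediator kinase address whether the changes depend on kinase activity. In dKO-8M and dKO-19M together SNX631 called 19 genes, 0.0950% of those tested, against 3.67% in Rv1-Luc. The 465 genes that rose in Rv1-Luc had a median log2 FC of 0.05 in these lines and the 269 that fell -0.10, and 1 and 2 of them were called in the same direction. The difference between the effects was itself tested and called for 477 genes (2.38%), 347 more positive in Rv1-Luc and 130 more negative. They included 292 of the 465 DEGs that rose (62.8%) and 114 of the 269 that fell (42.4%). The effect of PDK4 was 1.96 in Rv1-Luc and 0.05 in the kinase-dead lines (difference 1.91 ± 0.0882, FDR 2.34e-25), and that of BTG1 1.57 and 0.10 (difference 1.47 ± 0.0461, FDR 8.59e-34). HSP90B1 had -1.03 and 0.09 (difference -1.11 ± 0.0498, FDR 6.49e-26), and TRGC1 -1.57 and 0.13 (FDR of the difference 1.75e-35).

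For some genes the effect in the kinase-dead lines had the same sign. DDIT3 had a log2 FC of -0.41 in the kinase-dead lines against -1.18 in Rv1-Luc (difference -0.77 ± 0.0715, FDR 7.75e-13). NIBAN1 had -0.73 against -1.49 (difference -0.76 ± 0.176, FDR 0.0018), and UGT2B15 -0.83 against -1.50 (difference -0.67 ± 0.573, FDR 0.55). The albumin gene ALB had -0.68 against -1.73 (difference -1.05 ± 0.241, FDR 0.00191). NIBAN1 was itself a DEG in these lines. LGR5 and GRM3, which rose in Rv1-Luc, had -1.79 and -1.41 there, with an FDR of 0.106 and 0.409, so that neither was called. The lines differ from Rv1-Luc by the knockout, the introduced mutant and their derivation as well as by kinase activity, and these cannot be told apart in this comparison.

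**Figure D5:**
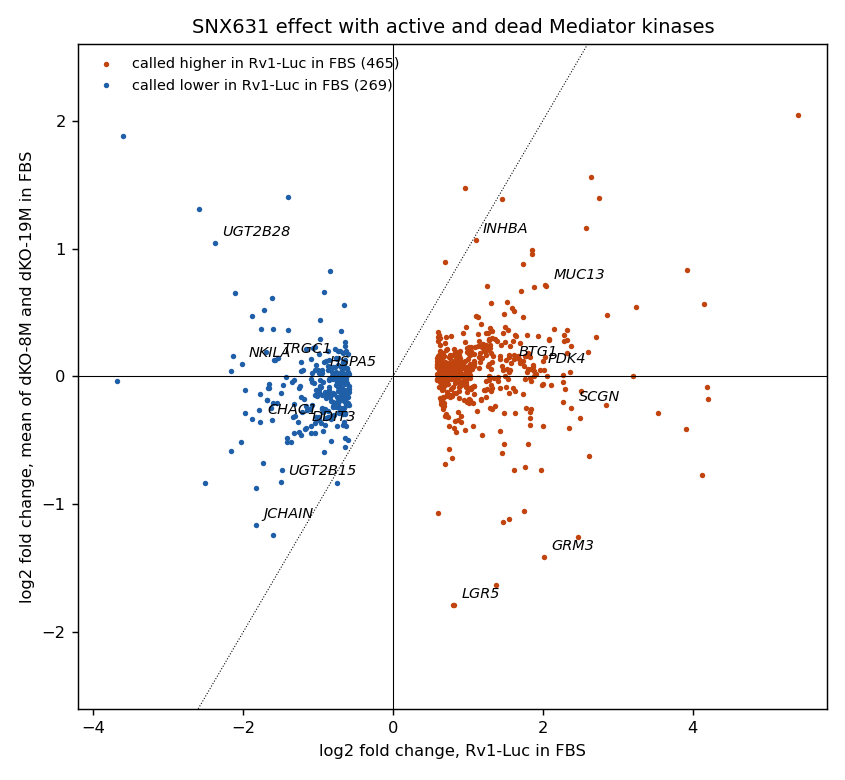
Each point is a DEG of Rv1-Luc in FBS, with its log2 FC there on the horizontal axis and the mean log2 FC in dKO-8M and dKO-19M on the vertical axis, orange for the 465 that rose and blue for the 269 that fell. The dotted line marks equal effects, and most points lie along the horizontal axis, with a median on the vertical axis of 0.05 and -0.10.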

How the data were processed

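Gene-level RNA-Seq counts of 48 libraries of 22Rv1 cells and derivatives were analysed, in 16 groups of 3. Total RNA was made into directional libraries, and per the submitters' processing notes the tools were FastQC, cutadapt 2.8, STAR 2.7.2b and featureCounts of Subread 2.0.3, with builds GRCh38.p13 and GRCm39. The annotation release and the strand setting of the counting are not given in the sources used here. The values deposited by the authors are estimated counts per gene, not normalized, of which 81.6% of those above 0 are whole numbers and the rest are fractions. They were rounded for the tests. The table has 61815 genes and 2 transgenes, and it holds no gene named as a mitochondrial transcript.

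Genes were kept by edgeR's filterByExpr with a minimum count of 10 (20009 genes), scaled by TMM, with factors of 1.04 to 1.05 in the 6 libraries compared, and fitted with edgeR 4.0.16 (R 4.3.3) in 1 quasi-likelihood model with a mean per group, which left 32 residual degrees of freedom. The biological coefficient of variation was 4.20%. Differences between settings were contrasts of the same model, and p-values were adjusted by the Benjamini-Hochberg method over all genes tested. The limits were an FDR under 0.01 and a FC over 1.5. A gene at or under 3 counts in every library of a group was given a bound against that floor, which covers counting error only. On simulated counts, drawn with the model's own estimates of spread, 200 genes among 19685 were changed, all with a mean above 1 CPM. The model called 94% of 2-fold and 89% of 1.75-fold changes for SNX631 against vehicle in Rv1-Luc in FBS, with 1 false call. These shares do not cover genes below 1 CPM.

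The genes named are the 20 highest and 20 lowest log2 FC among DEGs of at least 1 CPM with groups that do not overlap, the 12 lowest p-values in each direction, every DEG of a gene list with up to 4 other members, the kinase module, and the 10 lowest p-values of each difference between settings. Genes named after their values were seen are marked as such, and a few genes that the rule names are not reported here. The lists and the genes compared were chosen with earlier results of these data known. Lists are described by counts and medians, without a set test. Alternatives were other scalings, count filters, libraries in the fit, thresholds, rounding, thinning to the smallest library, DESeq2 1.42.0, a replicate block and each library left out.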

Additional observations from a re-analysis of the deposited data

Results flagged for a closer look

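SNX631 effects were compared between settings by contrasts of the edgeR model, and each value below is a difference of log2 FC that passed an FDR of 0.01 and 1.5-fold. The effect in Rv1-Luc differed between CSS and FBS for 16 genes. Taking CSS minus FBS, the 10 with the lowest p-values were KANSL1L at 0.89, ACADL at 0.70, COLCA1 at 1.18, IGHG3 at 5.14, VIL1 at -0.61, ADRA2A at 0.94, SEMA6B at -1.15, TRGJP at 0.68, NKILA at 0.69 and ANKRD6 at 0.62.

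In FBS the subline and the parental line Rv1-WT had different effects for 35 genes. Taking Rv1-Luc minus Rv1-WT, these were led by LRRC8A at 0.88, VIL1 at 1.11, SYT4 at -0.73, TRGC1 at -0.61, ZNF385B at 1.23, TARP at -0.62, PTHLH at 2.12, TUSC3 at 0.63, KLK3 at 1.49 and MUC13 at 0.86. Only 3 replicates stand behind each group, and TRGC1 and TARP are not independent.

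The effect differed between Rv1-Luc and the kinase-dead lines for 477 genes. Taking Rv1-Luc minus the mean of dKO-8M and dKO-19M, the lowest p-values belonged to TRGC1 at -1.70, TARP at -1.72, BTG1 at 1.47, HSP90B1 at -1.11, PDK4 at 1.91, NKILA at -2.12, SFN at 1.07, PDIA4 at -1.10, ARHGAP6 at 1.84 and PPP3CA at 0.84.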

How the results depend on the processing

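The counts of DEGs depended most on the thresholds. A test against a 1.5-fold change left 201 DEGs in Rv1-Luc in FBS and 1, 5 and 116 genes for the differences from CSS, Rv1-WT and the kinase-dead lines, and an FDR under 0.05 with no fold limit gave 4063, 102, 297 and 2345. Without a low-count filter the differences from CSS and Rv1-WT numbered 50 and 73, with only the libraries compared 2 and 20, and with only the 12 Rv1-Luc libraries the difference from CSS numbered 2. When single libraries were left out, 629 to 754 DEGs were called in place of 734. The same range was 8 to 31 for CSS, 24 to 62 for Rv1-WT and 424 to 489 for the kinase-dead lines. Scaling by library totals or RLE, unrounded counts, DESeq2, a minimum count of 50 and thinning kept all 4 counts within 1.5 times.

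The deviations of same-numbered libraries correlated at 0.084, 0.363 and -0.0989 over 11076 genes. No reference from differently numbered libraries was computed, so this cannot decide whether replicate numbers pair the samples. With the replicate block 727 DEGs were called, 702 of them shared, and the fibroblast median was 0.49. The calls of ALDH1L2 and KRT81 were lost, and no DEG named in the text changed direction under any alternative, whereas CDK8, CHGA, MED13 and TRIB3, which were not DEGs, had the opposite sign under at least 1. With only the libraries compared the calls of ELF3, CLDN4, ABCC2, SMOX, IRF1, DUSP6, DDC, HMGCS1, GPX2, OSGIN1, TCF7L1, WNT7B, DKK1 and PTHLH were also lost.

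List medians moved as follows. Keratins were at 0.95 without the filter, 0.84 at a minimum count of 50, 0.95 with only the libraries compared, 0.95 with the 12 Rv1-Luc libraries and 0.95 after thinning. Fibroblast markers were at 0.26, 0.44, 0.44, 0.44 and 0.41 in the same order. Luminal transcription factors were at 0.22 without the filter, 0.22 at a minimum count of 50, 0.21 with the libraries compared and 0.27 after thinning, and NF-kappaB genes at 0.0733 without the filter and 0.0693 at a minimum count of 50. EGF family genes were at 0.0641 at a minimum count of 50, 0.0640 with only the libraries compared, 0.0655 with the 12 Rv1-Luc libraries and 0.11 after thinning, which also gave 0.0334 for glucuronidation and -0.0218 for p53 targets. With single libraries left out, medians ran from 0.0737 to 0.34 for luminal transcription factors, 1.08 to 1.58 for keratins, 0.20 to 0.36 for neuroendocrine genes, -0.11 to 0.17 for androgen response, -0.0953 to 1.02 for fibroblast markers, 0.0910 to 0.26 for luminal markers, 0.0328 to 0.15 for Wnt genes, 0.0220 to 0.13 for immediate-early genes, -0.0152 to 0.13 for SMAD genes, -0.0113 to 0.0722 for EGF family genes, 0.00975 to 0.0634 for NF-kappaB genes, -0.0240 to 0.0805 for interferon genes, -0.0384 to 0.0232 for the kinase module, -0.17 to -0.0466 for glucuronidation, -0.15 to -0.0493 for aminoacyl-tRNA synthetases, -0.0314 to 0.11 for metallothioneins, 0.00294 to 0.0538 for p53 targets, -0.11 to 0.00894 for NRF2 genes and 0.00964 to 0.0332 for core Mediator. The causes were not tested.

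With 21.1 to 26.2 M counts per library, changes of genes below 1 CPM carry wide errors. DESeq2 did not call KRT7, PCSK1, KRT81 and UGT2B28.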
